A study of Arabidopsis thaliana with 22 samples.

Results

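In wild-type Arabidopsis seedlings (WT), 59 genes stood at least 4 times higher after 6 h of NaCl than before salt, after 24 h and after 72 h. These genes were chosen by their WT values from the 19116 genes with a mean count of at least 20 over all libraries, out of 33602 genes in the count table. For each gene the group mean of the counts scaled to equal library totals (CPM) was taken, 1 CPM was added, and the WT mean at 6 h had to reach 4 times the WT mean at 0, 24 and 72 h. The early peak in WT is therefore a property of the choice, and it is described here without a test. Wherever the genotypes are set side by side, the choice also favours lrx345 values below WT at 6 h and above WT at the other times. The lrx345 libraries entered the choice only through the minimum on the mean count, so the course of the same genes in the lrx345 mutant was the measurement left to test.

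The RNA came from whole 10-day-old seedlings, which were sampled before NaCl (0 h) and after 6, 24 and 72 h with 150 mM NaCl. The mutant lrx345 is a triple mutant of 3 genes, LRX3, LRX4 and LRX5, that encode leucine-rich repeat extensins of the cell wall, and WT is the Col-0 ecotype. Each genotype had 2 libraries before salt and 3 at every later time, 22 in all, and each library held between 7413461 and 15047080 counted fragments (median 11799160.5). The mutant is a single triple-mutant combination, and the later times have no untreated seedlings, so salt, time of day and age cannot be told apart in any comparison between times. In the mutant before salt, LRX3 averaged 10.5, LRX4 60.4 and LRX5 6.51 FPKM (counted fragments scaled to exon length and library size), against 41.1, 88.5 and 38.2 FPKM in WT, so that reads over the 3 mutated genes were fewer but still counted. Nothing in the labels says that replicates came from separate cultures, so the p-values measure the spread between these libraries. Where whole seedlings are measured, fewer cells of a type and less RNA per cell cannot be told apart.

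Salt lowers the water potential around the root, and the plant hormone abscisic acid (ABA) accumulates within hours. ABA releases SnRK2 kinases from protein phosphatases of the 2C class (PP2C), and the kinases activate bZIP factors that bind promoters with an ACGTG core, called the ABA-responsive element (ABRE). A second route runs through DREB and CBF factors, which bind a CCGAC core (the dehydration-responsive element, DRE). Late embryogenesis abundant (LEA) proteins, dehydrins and cold-regulated (COR) proteins protect membranes and proteins during water loss, and suberin is a polyester deposited in endodermal walls that limits the passage of water and ions.

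For description the 59 genes were sorted, after values were seen, into 16 genes of LEA, dehydrin or cold-regulated proteins, 18 placed together as suberin, lipid or cell wall genes, 9 of ABA signalling or transcription factors, and 16 with other or unknown roles. The suberin, lipid and wall group is loose. ABCG6, CYP86B1 and ASFT are the 3 of its members on the suberin and wax list, and its annotation is unspecific for AT1G55990 and AT4G33610 (glycine-rich proteins), AT5G08250 (a cytochrome P450) and AT4G03540 (an uncharacterized family). The ratio of WT at 6 h to the highest other WT time was 34.7 for COR15A at the top. MYB41 (4.12), AT4G03540 (4.10) and the laccase gene LAC5 (4.04) lay just inside the threshold, and the PP2C gene ABI2 (3.98), AT5G47530 (3.94) and EDA4 (3.92) just outside it. Together the 59 genes took between 0.0726% and 0.0910% of the counts in lrx345 libraries at 0 h, 0.667% to 0.812% at 6 h, 0.207% to 0.250% at 24 h and 0.383% to 0.479% at 72 h. In WT the shares were 0.0948% to 0.0956%, 1.37% to 1.44%, 0.164% to 0.183% and 0.131% to 0.149% at the same times. In the mutant the share was thus highest at 6 h as well, and the 72 h share lay above that at 24 h in every library, whereas in WT it lay below.

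The promoters of 4 members are printed because their genes took different courses in the mutant. COR15A was high only at 6 h in both genotypes, RD29B (symbol LTI65) and LEA7 were higher at 72 h than at 6 h in lrx345, and ASFT (symbol RWP1) stands for the suberin genes, whose promoters held fewer of these cores. Each is the stretch of 300 bases before the RefSeq gene start on the gene's own strand, from the RefSeq sequence of build TAIR10.1, with capitals for ABRE cores (ACGTG or its complement CACGT) and DRE cores (CCGAC or its complement GTCGG). The RefSeq start equals that of the count table for 10 of the 59 members, and 9 of the 59 windows overlap another gene.
COR15A promoter, chr2:17712331-17712630, minus strand: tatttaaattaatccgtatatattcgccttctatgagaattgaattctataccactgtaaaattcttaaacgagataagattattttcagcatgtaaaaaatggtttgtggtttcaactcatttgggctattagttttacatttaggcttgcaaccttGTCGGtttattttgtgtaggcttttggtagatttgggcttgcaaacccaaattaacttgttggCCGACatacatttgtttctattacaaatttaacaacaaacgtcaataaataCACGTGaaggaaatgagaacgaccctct
RD29B promoter, chr5:21236721-21237020, plus strand: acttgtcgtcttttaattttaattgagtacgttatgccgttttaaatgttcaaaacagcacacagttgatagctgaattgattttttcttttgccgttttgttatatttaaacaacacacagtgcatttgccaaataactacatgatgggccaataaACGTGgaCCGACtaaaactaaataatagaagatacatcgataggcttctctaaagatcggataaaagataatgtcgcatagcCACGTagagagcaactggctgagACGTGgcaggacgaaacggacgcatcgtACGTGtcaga
LEA7 promoter, chr1:19619424-19619723, plus strand: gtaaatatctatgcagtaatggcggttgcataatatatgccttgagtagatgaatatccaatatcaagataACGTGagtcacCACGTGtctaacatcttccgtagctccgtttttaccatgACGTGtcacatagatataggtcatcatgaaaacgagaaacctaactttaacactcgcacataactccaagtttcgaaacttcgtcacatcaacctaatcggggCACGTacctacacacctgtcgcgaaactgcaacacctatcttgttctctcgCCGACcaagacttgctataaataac
ASFT promoter, chr5:16431004-16431303, plus strand: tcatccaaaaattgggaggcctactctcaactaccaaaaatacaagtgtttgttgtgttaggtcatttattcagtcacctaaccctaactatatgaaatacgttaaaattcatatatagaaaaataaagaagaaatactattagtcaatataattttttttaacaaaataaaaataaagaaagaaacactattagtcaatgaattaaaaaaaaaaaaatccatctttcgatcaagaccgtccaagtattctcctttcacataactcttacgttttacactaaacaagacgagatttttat
The G-box CACGTG contains ACGTG and counts as an ABRE core on both strands. COR15A held 1 such G-box and 2 DRE cores, and the ASFT window held none of these letters.

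In the mutant, 58 of the 59 genes rose at 6 h against 0 h (edgeR quasi-likelihood test over 21831 genes, adjusted p under 0.05), while 23.9% of all genes tested rose. The lowest 6 h library lay above both 0 h libraries for 57 members, while this held for 32.7% of all genes tested. Of the 58 called members, 55 rose by more than 2-fold. The median log2 fold change was 3.41, with a range of -0.28 to 10.54, against a median of 0.00 over all genes tested. In lrx345 at 0 h 7 members had at most 3 counts in each library, and 3 of these had none. The upper end of the range is therefore not firm, whereas the median stayed at 3.41 with these 7 at their lower bound. The early rise was thus present in lrx345 for nearly every member. The gene that did not pass was AT3G22600, which encodes a protein of the lipid-transfer family.

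By 24 h the mutant had lost much of this rise. Against 6 h, 58 members fell, with a median log2 fold change of -1.54, while 21.2% of all genes tested fell. AT5G66780, which encodes a LEA protein, was the member that did not pass. Against 0 h, which shares the 24 h libraries with that comparison, 41 members were still higher at 24 h (27.5% of all genes rose) and 7 were lower (26.4% of all genes fell), with a median of 1.72. Without the second lrx345 library of 0 h the members lower at 24 h than at 0 h numbered 2.

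Between 24 h and 72 h most members rose again in the mutant. In lrx345, 46 members rose at 72 h against 24 h and 7 fell, with a median of 0.94, while 26.3% of all genes rose and 25.3% fell. Against 6 h, 34 members were lower at 72 h and 10 were higher (background 28.5% lower and 31.1% higher), with a median of -0.47 and a range of -4.24 to 2.47. Against 0 h, 48 members were higher at 72 h and 1 was lower (background 34.4% higher and 33.0% lower), with a median of 2.38. These comparisons share libraries with one another and are given side by side. The mean at 72 h exceeded that at 24 h for 49 members in lrx345 and for 21 in WT.

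Expressed per gene, the 72 h level in lrx345 was a median of 72.8% of its own 6 h level, with a range of 5.37% to 574.9%. In WT the median was 10.6%, with a range of 0.598% to 23.1%, where the choice of members caps the WT values. The 24 h level was a median of 34.0% of the 6 h level in lrx345 and 13.4% in WT, and the 0 h level 9.39% in lrx345 and 5.31% in WT. The highest mean of the 4 times fell at 6 h for 44 members and at 72 h for 14 members in lrx345, and at 6 h for all 59 in WT by choice. The remaining member, AT3G22600, was highest at 0 h in lrx345.

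**Figure D1:**
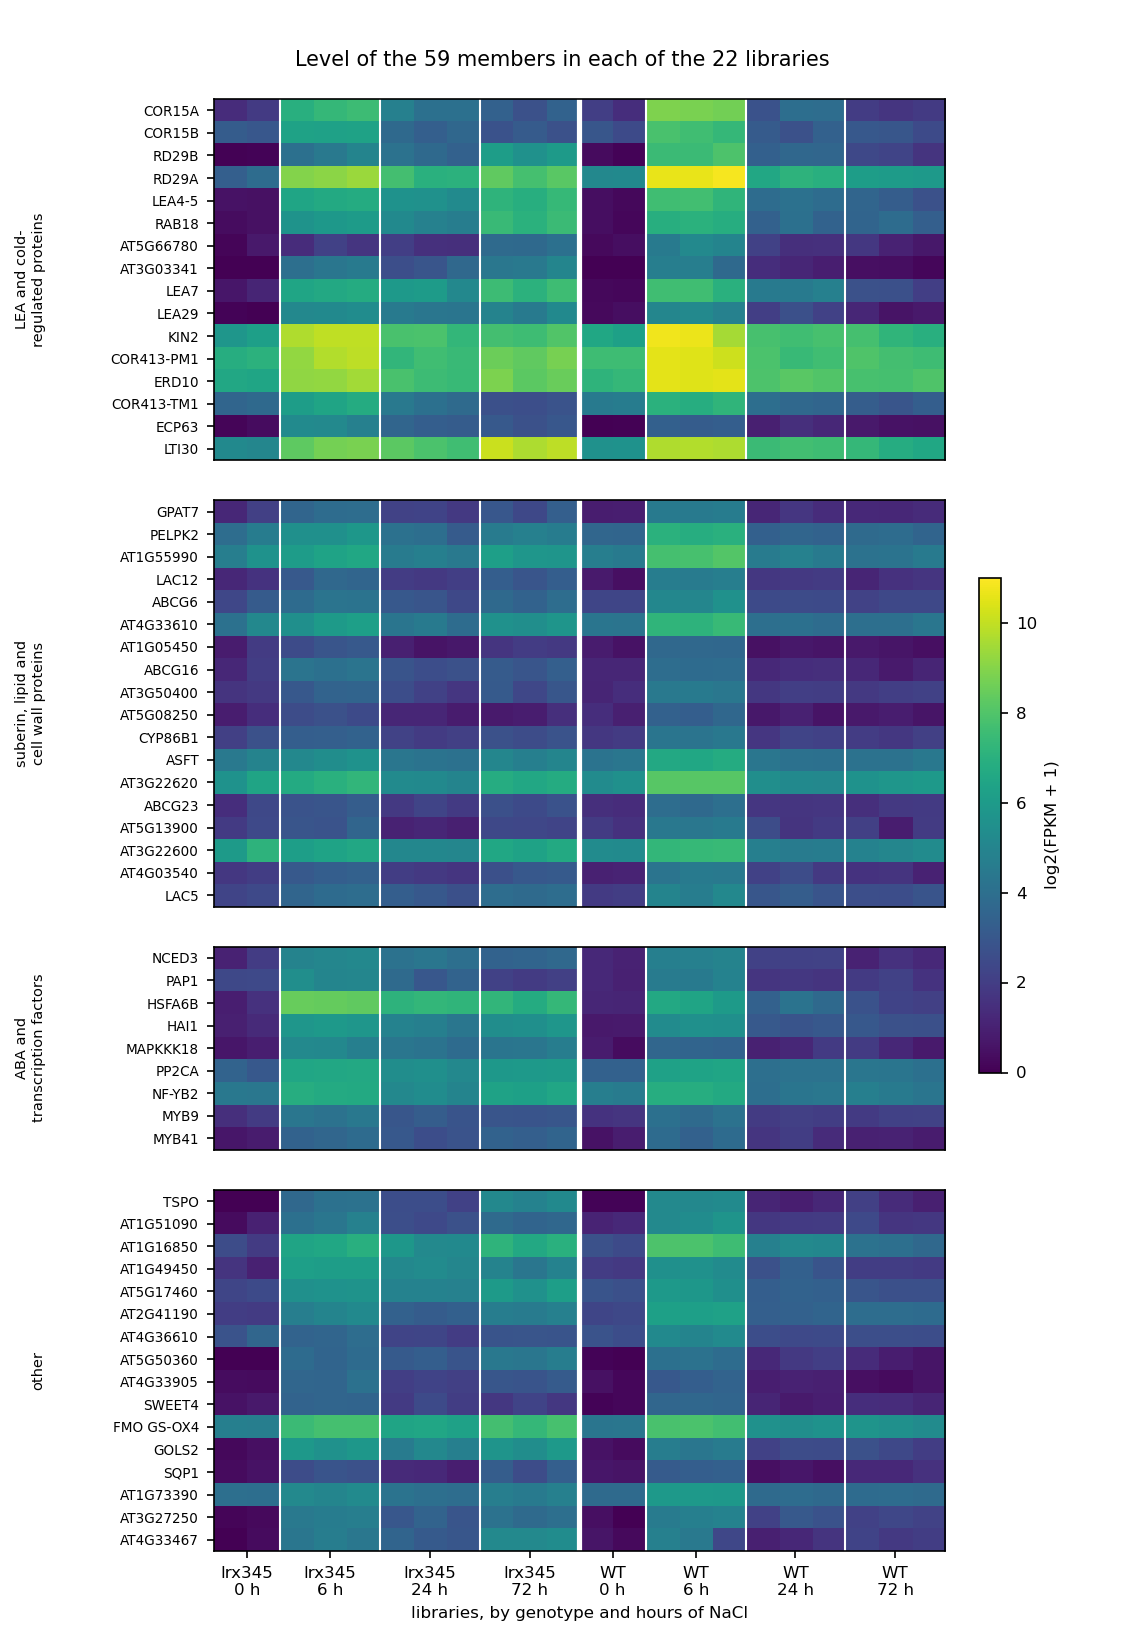
Heat map of log2(FPKM + 1) for the 59 members (rows, grouped by annotated role) in the 22 libraries (columns, lrx345 on the left and WT on the right, 0 to 72 h within each genotype). The WT block is bright only at 6 h, which the choice of members fixes, whereas in lrx345 the 72 h columns are brighter than the 24 h columns for most members.

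The rule that chose the WT genes was also applied to the lrx345 libraries, as a description. It found 21 genes, and 4 of them were among the 59, which is 6.78% of the WT list and 19.05% of the lrx345 list. The 4 shared genes are COR15A, COR15B, KIN2 and COR413IM1, all cold-regulated genes. For 13 other members the lrx345 mean in CPM was at least as high at 72 h as at 6 h, and 10 of these passed the test as higher. The remaining 42 members took neither course, and 30 of them passed as lower at 72 h than at 6 h. The sorting used the same libraries as this test, so the direction of these calls was set by it. Over all genes tested, 31.1% were higher and 28.5% lower in that comparison.

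Among the LEA and cold-regulated genes, all 16 rose at 6 h against 0 h in lrx345 (median log2 fold change 5.92, or 5.43 when members with 3 or fewer counts at 0 h are set at their lower bound). At 24 h against 6 h, 15 of the 16 fell, with a median of -1.48. From there the genes parted. At 72 h against 6 h, 6 were higher, 8 were lower and 2 did not pass the test, and at 72 h against 24 h, 11 were higher, 4 lower and 1 did not pass. Over all genes tested, 31.1% were higher and 28.5% lower at 72 h against 6 h. The shares were 26.3% and 25.3% at 72 h against 24 h. At 6 h against 0 h 23.9% of all genes rose, and at 24 h against 6 h 21.2% fell.

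COR15A (AT2G42540, chr2:17711032-17712330, minus strand), which encodes a chloroplast stroma protein that stabilises membranes during freezing, showed the sharpest WT peak. In lrx345 it had 1.61 and 2.70 FPKM at 0 h, 122, 158 and 187 FPKM at 6 h, 27, 15.9 and 15.7 FPKM at 24 h, and 9.59, 5.67 and 9.86 FPKM at 72 h. In WT it had 3.13 and 1.75 FPKM at 0 h, 469.6, 438 and 399 FPKM at 6 h, 5.81, 14.8 and 14.3 FPKM at 24 h, and 2.91, 2.28 and 2.61 FPKM at 72 h. All lrx345 libraries at 6 h lay below all WT libraries at 6 h, and at 72 h all lay above them. Within lrx345 the log2 fold change was 6.22 at 6 h against 0 h (standard error, SE, 0.355, edgeR adjusted p = 2.153e-12), -4.24 at 72 h against 6 h (SE 0.253, edgeR adjusted p = 2.238e-12) and -1.25 at 72 h against 24 h (SE 0.287, edgeR adjusted p = 0.00088). COR15A thus kept falling after 24 h in the mutant.

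COR15B, the neighbouring copy that ends 1086 bases from COR15A on chromosome 2, followed it. It had 80.8, 76.4 and 79.7 FPKM in lrx345 at 6 h and 5.80, 7.84 and 5.62 FPKM at 72 h, against 8.29 and 7.03 FPKM in lrx345 at 0 h. The 72 h libraries thus overlapped those at 0 h, with a log2 fold change of -0.25 that did not pass the test (edgeR adjusted p = 0.3835). The counting left out fragments that matched several places, and how many fragments these related copies lost in this way was not measured. COR413IM1, a gene of a chloroplast inner membrane protein, had 68.8, 85.0 and 109 FPKM in lrx345 at 6 h and 5.47, 5.19 and 6.11 FPKM at 72 h, against 11.1 and 12.7 FPKM at 0 h. It was the single member lower at 72 h than at 0 h in lrx345 (log2 fold change -1.09, edgeR adjusted p = 0.0001696).

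KIN2, a small cold- and ABA-induced protein with a near copy, KIN1, had 53.8 and 72.7 FPKM in lrx345 at 0 h, 814, 1001 and 998 FPKM at 6 h, 231.5, 233.7 and 156.8 FPKM at 24 h, and 206.5, 192.8 and 258.4 FPKM at 72 h. The 24 h and 72 h libraries overlapped, and the difference of 0.08 (log2) did not pass the test (edgeR adjusted p = 0.8052). In WT at 6 h KIN2 had 1738, 1620.0 and 741 FPKM, so that the last of these lay apart from the other two. ECP63, a LEA protein first described in embryos, had 37.6, 34.8 and 26.6 FPKM in lrx345 at 6 h, against 9.45, 8.31 and 8.71 FPKM in WT. It was the member of this group with all lrx345 libraries above WT at 6 h, and within lrx345 it was lower at 72 h than at 6 h (log2 fold change -2.32, SE 0.160, edgeR adjusted p = 2.652e-11).

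RD29A (symbol LTI78) and RD29B (LTI65) lie 1319 bases apart on chromosome 5 and encode related hydrophilic stress proteins, with DRE cores known for the first and ABRE cores for the second. RD29A had 9.12 and 13.8 FPKM in lrx345 at 0 h, 499, 542 and 650.4 FPKM at 6 h, 208, 127 and 134 FPKM at 24 h, and 321, 216 and 291.5 FPKM at 72 h. WT seedlings had 34.0 and 35.7 FPKM at 0 h, 1611, 1590.0 and 1850.0 FPKM at 6 h, 95.2, 138 and 121 FPKM at 24 h, and 68.6, 65.1 and 58.6 FPKM at 72 h. The mutant was below WT in every library at 0 h and 6 h and above WT in every library at 72 h. Within lrx345 RD29A was lower at 72 h than at 6 h by a log2 fold change of -1.03 (SE 0.176, edgeR adjusted p = 2.586e-05) and higher at 72 h than at 24 h by 0.82 (edgeR adjusted p = 0.0004473).

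RD29B turned the order of 6 h and 72 h round. In lrx345 it had 2 counts in each 0 h library (0.0604 and 0.0812 FPKM), 15.9, 21.02 and 30.1 FPKM at 6 h, 16.9, 12.6 and 9.66 FPKM at 24 h, and 68.5, 45.8 and 62.0 FPKM at 72 h. The WT libraries had 180.4, 180.4 and 242.5 FPKM at 6 h, 9.47, 11.9 and 11.2 FPKM at 24 h, and 4.29, 3.82 and 2.18 FPKM at 72 h. The mutant means were 0.112 times the WT mean at 6 h and 16.98 times at 72 h, with no overlap of libraries at either time. The choice of members by their WT values favours both of these ratios. Over all genes tested, 26.2% lay below WT in all libraries at 6 h and 33.4% above it at 72 h. Within lrx345 the 72 h libraries all lay above those at 6 h (log2 fold change 1.39, SE 0.207, edgeR adjusted p = 4.411e-06). The fall at 24 h against 6 h (-0.77, edgeR adjusted p = 0.007386) did not pass without the third 6 h library or the third 24 h library.

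The dehydrin RAB18 followed RD29B. It had 0.291 and 0.392 FPKM in lrx345 at 0 h, 48.6, 58.0 and 64.9 FPKM at 6 h, 35.9, 27.4 and 24.3 FPKM at 24 h, and 176, 129 and 178 FPKM at 72 h. In WT it had 0.325 and 0.159 FPKM at 0 h, 118, 131 and 116 FPKM at 6 h, 9.74, 15.5 and 9.92 FPKM at 24 h, and 10.7, 14.01 and 9.14 FPKM at 72 h. All 72 h libraries of the mutant lay above its own 6 h libraries, and they overlapped with the WT libraries of 6 h. Within lrx345 the log2 fold change was 1.49 at 72 h against 6 h (SE 0.152, edgeR adjusted p = 1.501e-08).

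The dehydrin LTI30 had 306.5, 412 and 438 FPKM in lrx345 at 6 h and 1114, 810.1 and 950.3 FPKM at 72 h, against 828, 848.5 and 806 FPKM in WT at 6 h and 160.3, 110.0 and 92.8 FPKM in WT at 72 h. Its log2 fold change in lrx345 was 1.31 at 72 h against 6 h (SE 0.163, edgeR adjusted p = 3.28e-07). LEA7 had 88.0, 99.2 and 109 FPKM in lrx345 at 6 h and 188, 135 and 190 FPKM at 72 h (log2 fold change 0.79, edgeR adjusted p = 0.0009357), against 5.67, 5.46 and 3.08 FPKM in WT at 72 h. LEA4-5 had 87.5, 101 and 110 FPKM in lrx345 at 6 h and 141, 119.5 and 162 FPKM at 72 h (0.50, edgeR adjusted p = 0.004054), against 10.9, 8.54 and 5.71 FPKM in WT at 72 h. In each of these genes all 72 h libraries of the mutant lay above all its 6 h libraries and above all WT libraries of 72 h.

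AT5G66780 had the highest change at 72 h against 6 h in lrx345. It had 0.103 and 0.691 FPKM at 0 h, 1.60, 3.32 and 2.27 FPKM at 6 h, 3.18, 1.88 and 1.79 FPKM at 24 h, and 13.02, 12.6 and 15.8 FPKM at 72 h in the mutant, against 22.1, 34.7 and 29.98 FPKM in WT at 6 h. The log2 fold change was 2.47 (SE 0.321, edgeR adjusted p = 6.205e-07). The rise at 6 h (2.74, edgeR adjusted p = 0.001343) did not pass without the first lrx345 library of 0 h. ERD10, an abundant acidic dehydrin, had 574, 590.0 and 714 FPKM in lrx345 at 6 h, against 1502, 1431 and 1476 FPKM in WT, and at 72 h it had 451, 299 and 360.0 FPKM in lrx345, against 224, 218 and 251 FPKM in WT. Within lrx345 ERD10 was lower at 72 h than at 6 h (-0.76, edgeR adjusted p = 1.823e-05), as was COR413-PM1, a cold-regulated plasma membrane protein (-1.11). AT3G15670, a LEA protein with 1 and 0 counts in lrx345 at 0 h, had 34.0, 36.5 and 39.4 FPKM in lrx345 at 6 h and 29.7, 22.3 and 36.3 FPKM at 72 h, which overlapped (-0.32, edgeR adjusted p = 0.08419), against 1.24, 0.489 and 0.685 FPKM in WT at 72 h.

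**Figure D2:**
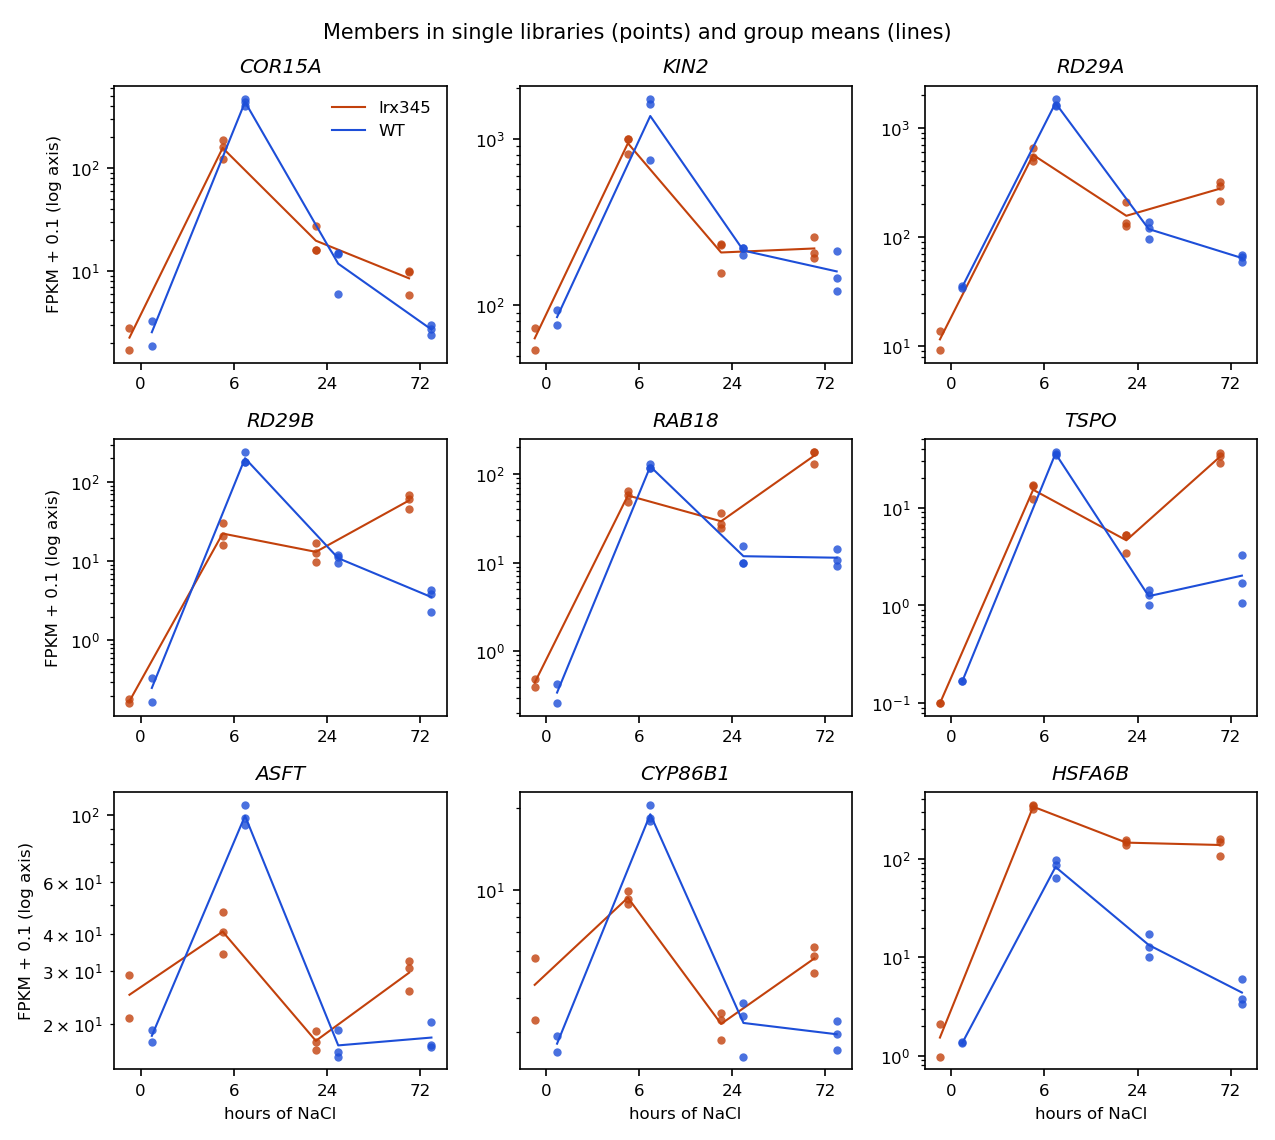
FPKM of 9 members by time of NaCl (h) in lrx345 and WT, on a log axis with 0.1 FPKM added. Points are libraries and lines join group means. COR15A falls at 72 h in both genotypes, whereas RD29B, RAB18 and TSPO end at 72 h above their 6 h level in lrx345.

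In the loose group of suberin, lipid and wall genes, 17 of the 18 members rose at 6 h against 0 h in lrx345, but by less, the median being 1.41 on the log2 scale. Over all genes tested, 23.9% rose. At 24 h against 6 h all 18 fell (median -1.71), while 21.2% of all genes tested fell. At 24 h against 0 h 6 were lower, 3 were higher and 9 did not pass the test. Of all genes tested, 26.4% were lower and 27.5% higher in that comparison. At 72 h against 24 h 17 rose (median 1.03), while 26.3% of all genes rose. At 72 h against 6 h 10 were lower (28.5% of all genes were) and 8 did not pass.

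ASFT (AT5G41040, chr5:16431374-16433305, plus strand) transfers ferulate to the long-chain alcohols and acids of suberin. It had 20.8 and 29.1 FPKM in lrx345 at 0 h, 34.2, 40.6 and 47.2 FPKM at 6 h, 18.8, 17.3 and 16.2 FPKM at 24 h, and 32.3, 25.8 and 30.7 FPKM at 72 h. WT seedlings had 17.3 and 18.98 FPKM at 0 h, 97.9, 92.5 and 108 FPKM at 6 h, 19.1, 16.1 and 15.5 FPKM at 24 h, and 16.6, 16.9 and 20.2 FPKM at 72 h. The mutant peak at 6 h was lower than that of WT, and all mutant libraries at 72 h lay above those of WT. Within lrx345 ASFT rose at 6 h against 0 h (0.71, SE 0.143, edgeR adjusted p = 0.0002374), fell at 24 h against 6 h (-1.22, SE 0.133, edgeR adjusted p = 1.155e-07) and rose at 72 h against 24 h (0.76, SE 0.135, edgeR adjusted p = 5.791e-05).

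CYP86B1, which oxidises the ends of very-long-chain suberin acids, had 3.23 and 5.54 FPKM in lrx345 at 0 h, 8.82, 9.15 and 9.87 FPKM at 6 h, 3.44, 2.71 and 3.23 FPKM at 24 h, and 5.61, 4.86 and 6.06 FPKM at 72 h. The WT libraries had 18.3, 17.9 and 20.5 FPKM at 6 h and 2.86, 2.49 and 3.22 FPKM at 72 h. It took the same course as ASFT, with a log2 fold change of 1.11 at 6 h against 0 h (edgeR adjusted p = 2.508e-05) and 0.82 at 72 h against 24 h (edgeR adjusted p = 0.0008186). ABCG6, a transporter of suberin precursors, averaged 16.04 ± 2.47 FPKM in lrx345 at 6 h and 12.4 ± 2.17 FPKM at 72 h (SD, 3 libraries each). Its difference of -0.38 did not pass the test, though it did with upper-quartile scaling or no filter on low counts. It also passed without library 1 or 2 of lrx345 at 0 h, library 1 at 6 h or library 3 at 72 h. GPAT7, an acyltransferase of the family that makes suberin monomers, had 10.9, 13.6 and 14.2 FPKM in lrx345 at 6 h, against 21.5, 21.9 and 23.9 FPKM in WT. PELPK2, a proline-rich wall protein, had 44.4, 44.6 and 55.1 FPKM in lrx345 at 6 h, against 128, 116 and 126 FPKM in WT.

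The members with the smallest rise at 6 h in lrx345 are AT3G22600, of this group, and the hydrolase gene AT4G36610. AT3G22600 had 63.1 and 139 FPKM in lrx345 at 0 h, 71.5, 81.9 and 94.4 FPKM at 6 h, 33.6, 33.6 and 32.3 FPKM at 24 h, and 93.4, 81.0 and 101 FPKM at 72 h, against 156, 166 and 169 FPKM in WT at 6 h. The 0 h libraries of the mutant differed by more than 2-fold and lay on either side of the 6 h libraries, with a log2 fold change of -0.28 (edgeR adjusted p = 0.2397), which passed as lower without the first 0 h library and as higher without the second. AT4G36610 had 6.11 and 11.5 FPKM in lrx345 at 0 h and 10.2, 11.2 and 14.3 FPKM at 6 h, and its rise of 0.47 (edgeR adjusted p = 0.04367) was close to the threshold. It did not pass with DESeq2, upper-quartile scaling, the lrx345 libraries alone or the replicate block, nor without library 1 of lrx345 at 0 h, library 2 or 3 of lrx345 at 6 h or library 1 or 3 of lrx345 at 72 h, nor without any one of 3 WT libraries. At the upper end, and named after the values were seen, ABCG16, a transporter related to ABCG6, averaged 17.1 ± 1.07 FPKM in lrx345 at 6 h, against 13.9 ± 0.487 FPKM in WT (SD, 3 libraries each). It was the member of this group with all mutant libraries above WT at 6 h.

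Because suberin genes act mostly in roots, markers of the root were read beside them. The summed level of 5 root markers (CASP1, EXPA7, COBL9, NRT2.1 and PIP2;2) at 6 h was 89.1 to 128 FPKM in lrx345 libraries, against 191 to 217 FPKM in WT libraries, and at 72 h 103 to 113 FPKM in lrx345, against 351 to 379 FPKM in WT. Within lrx345, 3 of the 5 fell at 6 h against 0 h, namely CASP1 of the endodermis and the root-hair genes EXPA7 and COBL9, and the nitrate transporter gene NRT2.1 rose. CASP1 averaged 33.7, 2.54, 0.463 and 9.24 FPKM in lrx345 at 0, 6, 24 and 72 h, and at 72 h against 24 h 4 of the 5 markers rose. COBL9 was nearly absent in lrx345 at 6 h, with a mean of 0.136 FPKM, against 4.86 FPKM at 0 h. The summed root level was thus lower in the mutant, and like the suberin genes it was lower at 24 h than at 6 h and higher again at 72 h. Unlike them it fell in lrx345 from 0 h (141 to 172 FPKM) to 6 h, where 17 of the 18 members of that group rose. In WT the sum was 125 to 155 FPKM at 24 h and higher at 72 h, whereas the ASFT libraries of these times overlapped. The part of the root markers in the result was not tested. The summed level of 5 leaf markers overlapped between the genotypes at 6 h, with 5055 to 6701 FPKM in lrx345, against 6591 to 8364 FPKM in WT. It was lower in lrx345 without overlap at 0 h (4826 to 5908 FPKM, against 6538 to 6714 FPKM in WT), at 24 h (9345 to 9919 FPKM, against 13180.4 to 14159 FPKM in WT) and at 72 h (4810.0 to 5709.6 FPKM, against 10359.7 to 11200.3 FPKM in WT). Within lrx345, 4 of the 5 leaf markers fell at 72 h against 24 h (median log2 fold change -0.92), the interval in which most of the 59 genes rose, and the part of this change was not tested either. Seed and embryo markers summed to at most 1.33 FPKM in any library.

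In the group of ABA signalling and transcription factors, all 9 members rose at 6 h against 0 h in lrx345 (median log2 fold change 4.06) and all 9 fell at 24 h against 6 h (-1.21). At 24 h against 0 h all 9 were still higher, with a median of 3.14. Over all genes tested, 23.9% rose at 6 h against 0 h, 21.2% fell at 24 h against 6 h and 27.5% rose at 24 h against 0 h. At 72 h against 6 h 8 were lower (median -0.67), while 28.5% of all genes tested were. At 72 h against 24 h 4 rose, 2 fell and 3 did not pass the test, while 26.3% of all genes rose and 25.3% fell.

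NCED3 encodes the dioxygenase that limits ABA synthesis under drought. It had 1.09 and 2.92 FPKM in lrx345 at 0 h, 29.5, 32.1 and 34.6 FPKM at 6 h, 16.5, 18.9 and 15.4 FPKM at 24 h, and 10.1, 10.7 and 12.2 FPKM at 72 h. In WT it had 1.43 and 1.09 FPKM at 0 h, 25.98, 26.8 and 29.2 FPKM at 6 h, 3.42, 3.40 and 3.49 FPKM at 24 h, and 1.07, 1.98 and 1.41 FPKM at 72 h. The mutant lay close to WT at 6 h (1.18 times the WT mean) but well above it at 24 h (4.93 times) and 72 h (7.53 times), without overlap. The choice of members by low WT values at 24 h and 72 h favours the last 2 ratios. Within lrx345 NCED3 rose at 6 h (4.06, SE 0.226, edgeR adjusted p = 1.432e-12) and then fell at each later time, by 0.92 on the log2 scale at 24 h against 6 h (edgeR adjusted p = 4.637e-05) and by 0.62 at 72 h against 24 h (edgeR adjusted p = 0.002933).

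The PP2C genes HAI1 and PP2CA encode phosphatases that act against the SnRK2 kinases. HAI1 had 0.947 and 1.49 FPKM in lrx345 at 0 h, 54.5, 60.9 and 54.1 FPKM at 6 h, 28.8, 25.6 and 19.1 FPKM at 24 h, and 40.7, 44.0 and 54.1 FPKM at 72 h. WT seedlings had 38.9, 44.6 and 44.0 FPKM at 6 h, 7.49, 6.16 and 7.28 FPKM at 24 h, and 7.20, 5.70 and 5.38 FPKM at 72 h. In the mutant HAI1 was thus back near its 6 h level at 72 h, and the remaining difference (-0.29, edgeR adjusted p = 0.04862) did not pass with DESeq2, a mean count of at least 20, the lrx345 libraries alone, the replicate block or 11 of the 22 fits without 1 library. PP2CA had 90.7, 95.3 and 99.6 FPKM in lrx345 at 6 h and 56.6, 60.0 and 62.5 FPKM at 72 h, against 78.0, 82.0 and 86.4 FPKM in WT at 6 h and 18.8, 18.6 and 15.9 FPKM in WT at 72 h. MYB41, a regulator of suberin and cuticle genes, had 9.95, 11.3 and 13.2 FPKM in lrx345 at 6 h and 9.96, 8.98 and 10.8 FPKM at 72 h, which overlapped (edgeR adjusted p = 0.3148).

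HSFA6B, a heat shock factor known to act downstream of ABA, was named after its values were seen. It had 0.879 and 1.97 FPKM in lrx345 at 0 h, 351, 341 and 319.7 FPKM at 6 h, 136, 153 and 147 FPKM at 24 h, and 148, 107 and 158 FPKM at 72 h. The WT libraries had 1.26 and 1.23 FPKM at 0 h, 97.6, 86.1 and 63.1 FPKM at 6 h, 9.83, 17.1 and 12.7 FPKM at 24 h, and 5.86, 3.67 and 3.28 FPKM at 72 h. The mutant mean was 4.10, 11.1 and 31.8 times the WT mean at 6, 24 and 72 h. MAPKKK18, an ABA-induced kinase likewise named afterwards, stood at 2.95, 9.71 and 12.4 times the WT mean at these times. For both genes the choice of members by low WT values favours the ratios at 24 h and 72 h. PAP1, the MYB factor of anthocyanin synthesis, did not stay high. It had 42.2, 30.9 and 32.3 FPKM in lrx345 at 6 h and 3.36, 2.76 and 3.19 FPKM at 72 h, against 22.6, 21.8 and 28.4 FPKM in WT at 6 h and 2.70, 3.37 and 2.04 FPKM in WT at 72 h, where the genotypes overlapped.

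Of the 16 members with other roles, all rose at 6 h against 0 h in lrx345 (median 4.89), all fell at 24 h against 6 h (median -1.43), and 14 rose at 72 h against 24 h (median 1.15). Over all genes tested the shares were 23.9%, 21.2% and 26.3%. At 72 h against 6 h 4 were higher, 8 lower and 4 did not pass the test, while 31.1% of all genes were higher and 28.5% lower. TSPO, a membrane protein that ABA and salt induce and that is turned over by autophagy, had no count in either lrx345 library at 0 h. It had 12.1, 16.4 and 16.96 FPKM in lrx345 at 6 h, 5.13, 5.13 and 3.36 FPKM at 24 h, and 33.8, 28.2 and 36.2 FPKM at 72 h, against 35.6, 34.2 and 37.1 FPKM in WT at 6 h and 3.20, 1.59 and 0.967 FPKM in WT at 72 h. Its 6 h level in lrx345 was at least 60.8-fold higher than a floor of 3 counts per library at 0 h. All mutant libraries at 72 h lay above those of 6 h (log2 fold change 1.1, SE 0.177, edgeR adjusted p = 1.347e-05), and they overlapped with the WT libraries of 6 h.

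GolS2, the galactinol synthase of raffinose sugars, had 0.185 and 0.372 FPKM in lrx345 at 0 h, 56.9, 46.6 and 55.1 FPKM at 6 h, 22.7, 34.0 and 25.7 FPKM at 24 h, and 50.6, 40.8 and 60.4 FPKM at 72 h. In WT it had 24.5, 19.1 and 22.5 FPKM at 6 h and 5.69, 4.23 and 3.004 FPKM at 72 h. The mutant was above WT at 6 h already (2.39 times), and its 6 h and 72 h libraries overlapped with a difference of -0.06 that did not pass the test. AT1G51090, of a family of heavy metal transport proteins, had 15.7, 18.8 and 27.3 FPKM in lrx345 at 6 h and 12.95, 10.6 and 11.6 FPKM at 72 h, all lower than at 6 h (-0.82, edgeR adjusted p = 0.001817), against 35.1, 39.8 and 51.3 FPKM in WT at 6 h. AT5G50360, which has a von Willebrand factor A domain, was also without counts in lrx345 at 0 h and at least 55.8-fold above the floor at 6 h, and it was higher at 72 h than at 6 h (0.76, edgeR adjusted p = 0.001217). AT5G17460 was higher as well (0.35, edgeR adjusted p = 0.01769), but not with upper-quartile scaling or without library 1 or 2 of lrx345 at 6 h or library 1 or 3 of lrx345 at 72 h.

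**Figure D3:**
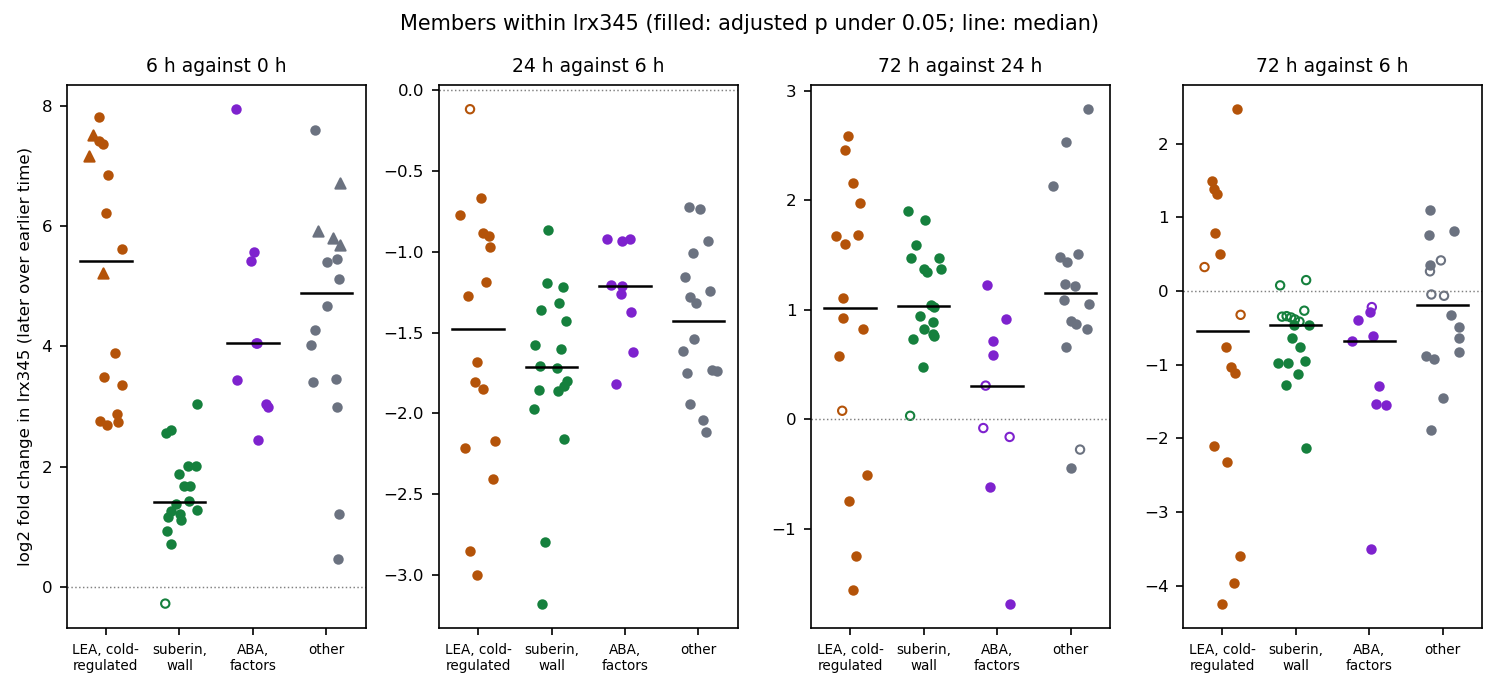
Log2 fold change of each member within lrx345 for 6 h against 0 h, 24 h against 6 h, 72 h against 24 h and 72 h against 6 h, by annotated role. Filled points have an edgeR adjusted p under 0.05, triangles are members with at most 3 counts at 0 h drawn against that floor, and lines are medians. The medians of 24 h against 6 h lie between -1.71 and -1.21 in all 4 roles, and those of 72 h against 6 h between -0.67 and -0.19.

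Set against WT, most members were lower in lrx345 at 6 h and nearly all were higher at 72 h. Since the members were chosen for a high WT value at 6 h and low WT values at the other times, the choice itself favours lower values in lrx345 at 6 h and higher values at 0, 24 and 72 h, and the following counts are a description with no test. All lrx345 libraries lay above all WT libraries for 23 members at 0 h, 12 at 6 h, 33 at 24 h and 54 at 72 h, while the shares over all genes tested were 25.8%, 22.7%, 25.6% and 33.4%. All lay below for 14, 37, 3 and 1 members, while the shares over all genes were 34.5%, 26.2%, 30.1% and 33.1%. The median log2 ratio of lrx345 to WT over the members was 0.31, -0.86, 0.67 and 2.01 at 0, 6, 24 and 72 h, and over all genes between -0.08 and -0.01. The median at 0 h rests on 2 libraries per genotype and was 0.03 without the second lrx345 library.

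By role, at 6 h the median was -0.97 for LEA and cold-regulated genes and -1.18 for suberin, lipid and wall genes, with 12 of 16 and 17 of 18 members below WT in all libraries. For ABA signalling and transcription factors it was 0.31, with 7 of 9 members above WT in all libraries. Of all genes tested, 26.2% lay below WT and 22.7% above it in all libraries at 6 h. At 72 h the medians were 3.12, 1.397 and 2.91 for these roles and 2.62 for the others. COR413IM1 was the 1 member with all lrx345 libraries below WT at 72 h.

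**Figure D4:**
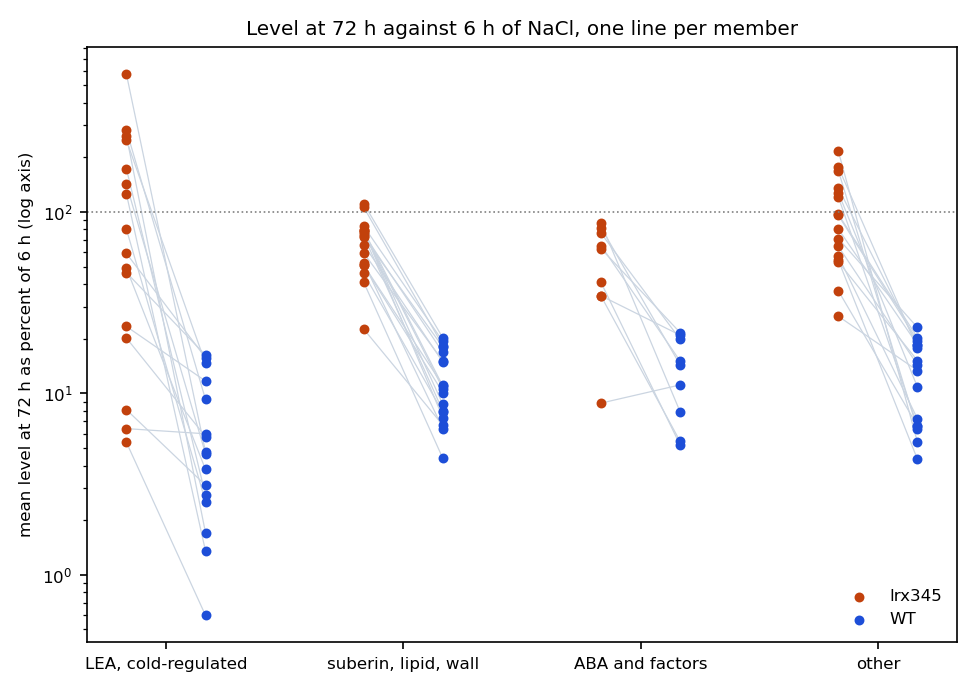
Level at 72 h as a percentage of the level at 6 h for each member, in lrx345 (left of each pair) and WT, by annotated role, on a log axis. All WT points lie at or below 23.1%, which the choice of members requires, and the lrx345 points have a median of 72.8% and reach 574.9%.

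The stretch before the gene start, which the rule did not use, varied among the members. An ABRE core was found in 28 of the 59 promoters (47.5%), against 25.6% of 27443 promoters of protein-coding genes, and a G-box in 16 (27.1%, against 7.09%). A DRE core was found in 23 (39.0%, against 13.9%) and the evening element AAATATCT of the circadian clock in 6 (10.2%, against 5.64%). Both strands were searched, and a match is a stretch of letters and not a shown binding site. DRE cores stood in 13 of 16 LEA and cold-regulated promoters, 2 of 9 in the ABA and transcription factor group, 8 of 16 with other roles and 0 of 18 in the suberin, lipid and wall group. G-boxes were likewise in 7 of the 16 and in 0 of the 18. Of the 13 members that at 72 h stood at or above 6 h in the mutant, 12 had a DRE core and 10 an ABRE core, against 8 and 15 of the 42 members of neither pattern. The 4 genes that kept the early peak, COR15A among them, included 3 with a DRE core and 3 with an ABRE core. These shares are given without a test, since the course in lrx345 and the motif were both read after the choice of members.

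**Figure D5:**
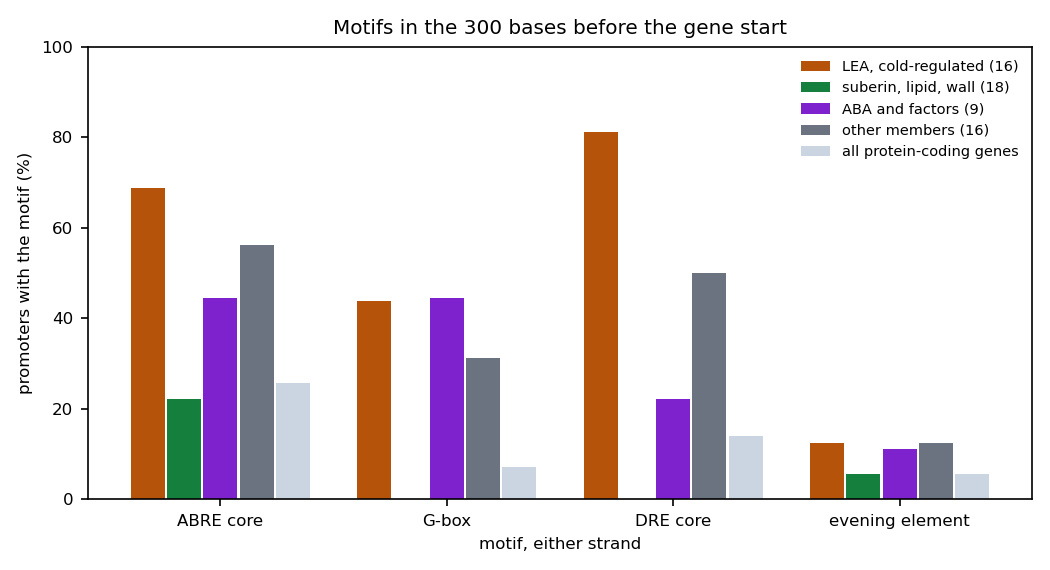
Share of promoters (300 bases before the gene start, in percent) that hold an ABRE core, a G-box, a DRE core or an evening element, for each annotated role of the members and for all protein-coding genes. The bar of DRE cores reaches 81.2% in LEA and cold-regulated genes and is at 0 in suberin, lipid and wall genes, against 13.9% of all.

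Other genes of the ABA, LEA, suberin and CBF pathways were read from the pathway lists in lrx345. Over all genes tested, 23.9% rose and 23.1% fell at 6 h against 0 h, and 21.2% fell at 24 h against 6 h. At 72 h against 6 h, 31.1% of all genes were higher and 28.5% lower, and the list counts are to be read beside these shares. Of 8 PP2C genes of the ABA pathway, all 8 rose at 6 h against 0 h and all 8 fell at 24 h against 6 h, and 6 of them are not members. At 72 h against 6 h, 1 of these 6 was higher (HAI2, 0.53), 3 were lower and 2 did not pass the test. Of 15 LEA and cold-regulated genes outside the 59, 14 rose at 6 h, 7 fell at 24 h against 6 h and 8 did not, and 8 were higher and 3 lower at 72 h against 6 h. EM1, a LEA gene known from seeds, was among those higher, with a log2 fold change of 1.30. The CBF and DREB list holds no member, and all 8 of its genes rose at 6 h, among them DREB2A (6.29), which was higher still at 72 h than at 6 h by 2.61, and CBF1 (6.496), which was lower, with -1.22. Of 18 suberin and wax genes outside the 59, 15 rose and 1 fell at 6 h, and at 72 h against 6 h 4 were higher and 11 lower. Among them GPAT5 rose at 6 h by 1.52 and KCS2 by 2.61, whereas CYP86A1, the hydroxylase of suberin acids, changed by -0.24 and did not pass the test.

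Genes of the circadian clock differed between the times of sampling in both genotypes. LHY, a morning gene, averaged 3.85, 4.17, 52.6 and 79.1 FPKM in lrx345 at 0, 6, 24 and 72 h and 3.08, 2.93, 52.6 and 93.3 FPKM in WT. TOC1, an evening gene, averaged 40.7, 47.4, 19.95 and 30.9 FPKM in lrx345 and 42.9, 55.1, 17.7 and 20.7 FPKM in WT. In both genotypes LHY was thus far higher, and TOC1 lower, at 24 and 72 h than at 0 and 6 h. Over the list of 22 clock genes, 13 rose and 2 fell at 6 h against 0 h in lrx345, while 23.9% of all genes rose and 23.1% fell. At 72 h against 24 h 12 rose and 4 fell, while 26.3% of all genes rose and 25.3% fell. The clock genes thus also differed within these pairs of times. Cold-regulated genes such as COR15A and KIN2 are known to follow the clock, and with no untreated seedlings at the later times the part of the time of day cannot be told apart from that of salt.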

How the data were processed

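RNA-seq libraries of lrx345 and WT seedlings at 0, 6, 24 and 72 h of NaCl were analysed from raw counts of fragments per gene, which the authors deposited without normalization. Per the labels and the file header, the authors mapped reads to TAIR10 with TopHat2 after FastQC and counted pairs over exons with featureCounts 1.4.6, without strand. Fragments that matched several places or several genes were left out, so the counts of near-identical copies are uncertain. Total counts per library are given in the report, and they limit precision for genes with few counts.

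Counts were fitted in R 4.3.3 with edgeR 4.0.16 (TMM scaling, filterByExpr, glmQLFit and glmQLFTest). One model with the 8 group means held all 22 libraries, and p-values were adjusted by Benjamini and Hochberg over the 21831 genes tested, with a threshold of 0.05. All 59 members passed the filter. The SE is the size of the log2 fold change divided by the square root of F, which is approximate. FPKM were computed from count, exon length and TMM-scaled library size. A group with at most 3 counts per library was taken as at the floor.

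The members and the gene lists were chosen with earlier results of these data known, and the roles were assigned after values were seen. Genes named in the text are the 10 with the largest WT ratio, members on the pathway lists, the 5 highest and 5 lowest called changes at 72 h against 6 h in lrx345, the 3 highest at 24 h against 6 h, the 3 lowest at 6 h against 0 h, the 3 most abundant in WT at 6 h and the 3 on each side of the threshold, with a mean count of at least 50 for the ranked changes. Other members are said to be named afterwards or are named because they make up a small count. One WT column of 0 h carries another replicate number than the labels and was used without a number. Names came from the RefSeq gene table, which matched 32835 of 33602 identifiers and all 59 members. Alternatives were DESeq2 1.42.0, upper-quartile scaling, other filters, the lrx345 libraries alone, a replicate block, other settings of the rule and leaving out each library. The fitting code was checked on made-up counts with known changes.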

Additional observations from a re-analysis of the deposited data

Results flagged for a closer look

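For 9 members every lrx345 library at 72 h lay above every lrx345 library at 6 h, while every WT library at 72 h lay below every WT library at 6 h. The lrx345 part of this holds for 34% of all genes tested. The share of all genes that showed both parts was not measured, so the 9 of 59 members cannot be called an excess. The log2 fold change of 72 h against 6 h within lrx345 was 2.47 for AT5G66780, 1.49 for RAB18, 1.39 for RD29B (LTI65), 1.31 for LTI30, 1.1 for TSPO, 0.81 for AT4G33467, 0.79 for LEA7, 0.76 for AT5G50360 and 0.50 for LEA4-5. The difference between the genotypes was not tested, because the fall in WT was fixed by the choice of members. The rise of AT4G33467 (edgeR adjusted p = 0.03284), named because it completes this count, was not called by DESeq2, with upper-quartile scaling or without any one of the 3 lrx345 libraries at 6 h or at 72 h.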

How the results depend on the processing

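No called member changed direction within lrx345 under any of the alternatives run. Leaving out 1 library at a time gave AT3G22600, not called at 6 h against 0 h, log2 fold changes of -0.746 to 0.387, and it passed as lower without the first lrx345 library of 0 h and as higher without the second. Uncalled differences changed sign without passing for LAC5 at 72 h against 6 h (-0.044 to 0.165 without 1 library, -0.014 with upper-quartile scaling), GolS2 at 72 h against 6 h (-0.21 to 0.076) and AT5G66780 at 24 h against 6 h (-0.425 to 0.226). A fold of 3 in place of 4 gave 116 members and a fold of 6 gave 27, and the members that kept the early peak in lrx345 then numbered 16 and 2. Where a change above 2-fold was also asked, 4 members were lower at 24 h than at 0 h, 21 differed at 72 h against 6 h (5 higher, 16 lower) and 32 at 72 h against 24 h (29 higher, 3 lower). Leaving out 1 library at a time gave 2 to 10 members lower at 24 h than at 0 h, and 0.034 to 0.42 for the median log2 ratio to WT at 0 h, both with the lowest value without the second lrx345 library of 0 h. Upper-quartile scaling shifted the median of all genes by -0.10 at 24 h and by -0.14 at 72 h against 0 h. Over 34 named genes, 790 of 816 values kept their direction and their side of the threshold, 14 no longer passed, 7 passed only then and 5 had the other sign. Correlations between same-numbered lrx345 libraries of different times ran from -0.11 to 0.197, with 3 of 15 above 0.1. Those between other libraries ran from -0.18 to 0.142. These values cannot decide whether the numbers pair the samples, since the 2 libraries at 0 h deviate from their mean by mirrored amounts. With the replicate number as a block, 57 members differed at 6 h against 0 h, 48 at 24 h against 0 h, 50 at 72 h against 0 h, 58 at 24 h against 6 h, 43 at 72 h against 6 h and 53 at 72 h against 24 h.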
